A study of Mus musculus with 12 samples.

Results

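The genes described here encode 6 signal transducers and activators of transcription (STATs), Stat2, Stat3, Stat4, Stat5a, Stat5b and Stat6, and 3 Janus kinases, Jak1, Jak2 and Tyk2. They were listed by name as members of these families, and are 9 of the 21754 genes of the count table. Janus kinases sit on the inner side of cytokine receptors. When a cytokine binds, they phosphorylate the receptor and the STATs recruited to it, and the STATs then pair, enter the nucleus and act on transcription. Dendritic cells depend on this pathway at several points: Flt3L, the cytokine that drives both conventional dendritic cells (cDCs) and plasmacytoid dendritic cells (pDCs), signals in part through STAT3, GM-CSF signals through JAK2 and STAT5, and type I interferon, which pDCs make in large amounts, signals through JAK1, TYK2 and STAT2.

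RNA was measured in 12 bulk SCRB-seq libraries, a method that reads the 3' ends of transcripts, from cells sorted by flow cytometry from the bone marrow of C57BL/6 mice. The 4 populations were Siglec-H- pre-cDCs, CCR9lo B220lo precursors (lo-lo) and CCR9lo B220hi precursors (lo-hi), both taken from CD11c+ Siglec-H+ cells, and differentiated CCR9hi B220hi pDCs, with 3 libraries each. No mouse carried a transgene or received a treatment according to the labels, and they give neither age nor sex. The legend of the study names 3 individual mice as the source, whereas its methods say of precursor sorts in general that bone marrow of several mice was pooled.

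The wells were not grouped by their deposited titles. Each of the 12 samples in the study's heat map of 28 transcription factors (TFs) was compared with each well by the order within its 378 pairs of TFs. A pair was discordant if its order was reversed, so tied counts were never discordant. For each sample 1 well of the count table had 0 discordant pairs, and the next best well had at least 7. On that match the pre-cDCs are wells A1, A5 and A9, lo-lo cells A2, A6 and A10, lo-hi cells A3, A7 and A11, and pDCs A4, A8 and A12, numbered as replicates 1 to 3. The deposited title gives the same population for 4 wells and another one for 8. Stat3 is among the 28 TFs, and without it the match of all 12 samples was the same, again with 0 discordant pairs of 351. Siglech and Ccr9, which are outside the matched list, rose from pre-cDCs over lo-lo and lo-hi cells to pDCs. Siglech, which encodes the sorted surface protein, had 308 ± 122 CPM (counts scaled to a common library total) in pre-cDCs, 854 ± 136 in lo-lo cells, 2130 ± 206 in lo-hi cells and 2789 ± 232 in pDCs (mean ± SD, n = 3 each). Ccr9 had 33.0 ± 11.5, 65.9 ± 3.26, 230.4 ± 18.0 and 460.2 ± 61.7 CPM in the same order. The 3 wells titled pDC instead held from 729 to 2989 CPM of Siglech, and those titled lo-hi from 206 to 2842 CPM. Not every marker gene rose along the matched populations: Itgax had its highest mean in lo-lo cells (104 ± 8.56 CPM) and its lowest in pDCs (29.6 ± 5.67 CPM). Replicate numbers of the match also followed the sex-linked genes: Xist was between 26.6 and 58.4 CPM in the 4 wells of replicate 3 and between 218 and 596 CPM in the other 8 wells, whereas Ddx3y, on the Y chromosome, was between 19.6 and 62.9 CPM in replicate 3 and no higher than 3.62 CPM elsewhere. With the wells grouped by their titles, edgeR called 0 of 15293 genes at an adjusted p below 0.01 in the test over the 4 populations (166 genes at an unadjusted p below 0.05), and 0 of the 9 STAT and Janus kinase genes had an unadjusted p below 0.05 (smallest 0.266). The results therefore rest on the match. Values in the 4 wells on which title and match give the same population (A1, A6, A7 and A12, 1 well of each and so without replicates) are given beside them.

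**Figure D1:**
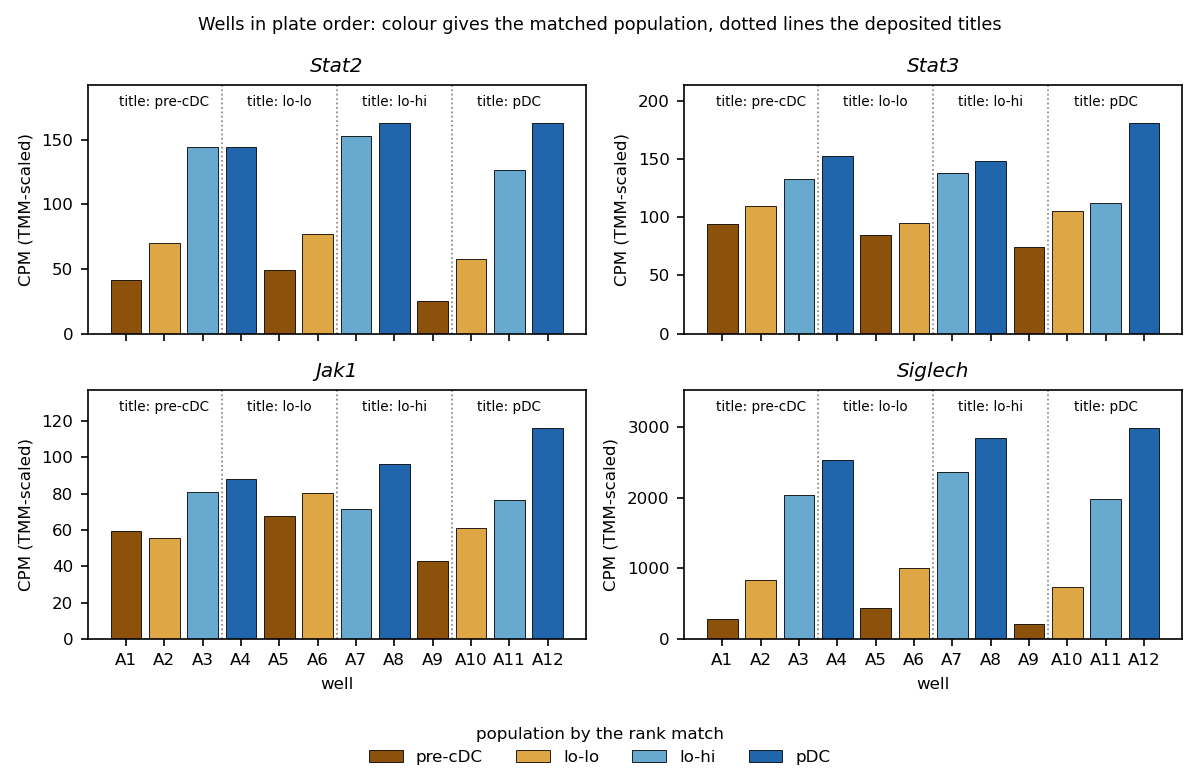
CPM (y axis, linear, scaled by the TMM method) of Stat2, Stat3, Jak1 and Siglech in the 12 wells in plate order (x axis), 1 bar per well. Bar colours give the matched population and dotted lines separate the deposited titles: Stat2 and Siglech climbed within each run of 4 wells from pre-cDC to pDC or stayed level at the last step, whereas each title spans wells of different populations.

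Libraries held 1801463 to 5995971 counts (median 3087455), so that 3 counts, taken as the detection floor, correspond to 0.50 to 1.67 CPM. All 9 genes passed the filter of a mean count of at least 1, with 7 to 895 counts per well, the lowest for Stat4. Neutrophil genes were present in every library, with the summed level of 9 markers between 3255 and 20670 CPM, overlapping between the populations except that all 3 pDC wells (3255 to 6617 CPM) were below the lo-hi wells (9884 to 20670 CPM); 0 of these 9 markers were called in any comparison by edgeR. T and NK cell markers summed to at most 7.90 CPM in any well. Erythroid markers summed to 2500 to 8990 CPM with 0 of 5 called in any comparison by edgeR. B cell markers summed to 64.5 to 152 CPM, with 1 of 6 called higher in lo-hi than in lo-lo cells, as were 2.33% of all genes. The 4 markers of mast cells and basophils summed to 827, 709 and 109.4 CPM in replicates 1 to 3 of the pre-cDCs and to 44.2 to 197 CPM in the other wells, with a median log2 fold change of -2.73 in lo-lo cells and -2.20 in pDCs over pre-cDCs, and 0 of 4 were called by edgeR. The 4 platelet markers summed to 18.6 to 91.7 CPM in pre-cDCs and 9.10 to 20.1 CPM in pDCs, with a median of -1.92 and 0 of 4 called. In replicate 3, where the mast cell and basophil sum of the pre-cDC well lay within the range of the other populations, the log2 differences of Stat2, Stat3 and Jak1 between pDC and pre-cDC well were 2.69, 1.28 and 1.43, the highest of the 3 replicates for each gene. Its pre-cDC well was the lowest pre-cDC well for each of these genes, and replicate 3 also differed in Xist and Ddx3y. The part of mast cells and basophils in the differences was not tested. The 7 genes of cycling cells summed to 1247 to 1390 CPM in pre-cDCs, 1324 to 1443 in lo-lo cells, 538 to 700.1 in lo-hi cells and 229 to 297 in pDCs, and thus changed along the same order of populations as several genes below, and the part of cell cycle state in those results was not tested. In such bulk samples a lower value from fewer cells of a type and from less RNA per cell cannot be told apart.

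Over the 4 populations, 4 of the 9 genes differed in edgeR's quasi-likelihood test: Stat2, Stat3, Jak1 and Jak2. Of all 15293 genes tested, 19.9% were called by the same rule, an adjusted p below 0.01 after Benjamini-Hochberg correction. Stat2, Stat3 and Jak1 were highest in pDCs, whereas Jak2 was highest in pre-cDCs and lo-lo cells. The other 5 genes, Stat4, Stat5a, Stat5b, Stat6 and Tyk2, did not pass (edgeR, Benjamini-Hochberg adjusted p = 0.0759, 0.0819, 0.255, 0.0968 and 0.0874). The calls of Stat2 and Stat3 held in all 20 alternative analyses of the matched wells. Among these, a looser cutoff of 0.05 on the same fit could lose no call. Those of Jak1 and Jak2 held in 10 and 13 of 20, with Benjamini-Hochberg adjusted p-values up to 0.0332 and 0.0225 in edgeR.

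Stat2 showed the widest range of the family. STAT2 is the STAT of the interferon receptors, which joins IRF9 in the complex ISGF3 after type I interferon binds. In pre-cDCs it had 41.9, 49.1 and 25.0 CPM in replicates 1 to 3. In lo-lo cells it had 70.0, 77.1 and 58.1 CPM. In lo-hi cells it had 144, 153 and 127 CPM, and in pDCs 144, 163 and 163 CPM. Each population was thus above the one before it without overlap up to the lo-hi stage, and lo-hi cells and pDCs overlapped. The level in pDCs was 4.08-fold that in pre-cDCs (log2 fold change 2.03, SE 0.20, 95% confidence interval 1.63 to 2.43, edgeR adjusted p = 7.88e-09 by Benjamini-Hochberg). All pDC wells were above all pre-cDC wells, and hence also within 3 of 3 replicates. Between lo-lo and lo-hi cells Stat2 rose 2.07-fold (log2 1.05, SE 0.19, edgeR, Benjamini-Hochberg adjusted p = 3.66e-04). The step from pre-cDCs to lo-lo cells was 1.78-fold (log2 0.83, SE 0.20, edgeR, Benjamini-Hochberg adjusted p = 0.00884), and lost its call in 11 of 20 alternatives. Without pre-cDC replicate 3, the well with the lowest Stat2, it was 0.59 on the log2 scale (edgeR, Benjamini-Hochberg adjusted p = 0.0757). Between lo-hi cells and pDCs the difference was 0.15 on the log2 scale, with a 95% interval from -0.23 to 0.52. In the 4 wells on which title and match give 1 population, Stat2 was 41.9 CPM in the pre-cDC, 77.1 in the lo-lo, 153 in the lo-hi and 163 in the pDC well.

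Stat2 lies on chromosome 10 (GRCm38, 128270559-128292849, plus strand). Interferon-stimulated genes are known for the element bound by ISGF3, searched here as GAAA, any 2 bases and GAAA again on both strands, in windows of 250 bases before to 50 bases after each RefSeq start site. It was found in 1 place in the Stat2 window, on the minus strand, with its first base at -222 from the start site. Among the 12 RefSeq windows of the 9 genes the only other match was at the second start site of Stat4, and 3.44% of 32851 promoters hold it. The second motif searched, TTCNNNGAA, the palindrome of STAT dimers, was in 0 of the 12 windows and in 8.3% of all promoters, and overlapped neither match. The 250 bases before the start sites of the genes with the lowest p over the populations, Stat2 and Stat3, are shown from RefSeq on GRCm38.p6, 5' to 3' on the strand of the gene, with the match in capitals as its reverse complement in Stat2 and with no capitals in Stat3, whose window held neither motif. The third line is the Stat4 match with 10 bases on either side.
Stat2, chr10:128270248-128270497 (plus strand): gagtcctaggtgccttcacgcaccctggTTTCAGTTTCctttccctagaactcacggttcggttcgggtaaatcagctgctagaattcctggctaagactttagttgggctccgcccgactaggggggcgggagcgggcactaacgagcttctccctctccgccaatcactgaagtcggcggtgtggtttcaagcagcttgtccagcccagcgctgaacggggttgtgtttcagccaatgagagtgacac
Stat3, chr11:100939541-100939790 (minus strand): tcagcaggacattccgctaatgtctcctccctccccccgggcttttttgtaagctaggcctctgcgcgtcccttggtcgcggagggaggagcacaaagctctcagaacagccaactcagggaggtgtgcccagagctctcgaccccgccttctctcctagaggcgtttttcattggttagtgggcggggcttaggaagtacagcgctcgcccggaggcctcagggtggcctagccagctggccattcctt
Stat4, chr1:52008133-52008162 (plus strand): aatgtcttcaGAAAGTGAAAtttagaacgg
A match is a description of the letters, and no binding was measured in these libraries.

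Stat3, the STAT of Flt3L, IL-6 and IL-10 signalling, differed in smaller and more even steps. It had 94.0, 84.8 and 74.3 CPM in the pre-cDC wells. Its values were 109.9, 94.9 and 105 CPM in lo-lo cells, 133, 138 and 112 CPM in lo-hi cells, and 152, 148 and 181 CPM in pDCs. No well of one population overlapped with the next, although the margin between the highest pre-cDC and the lowest lo-lo well was under 1 CPM. Each step was of similar size, 0.29, 0.31 and 0.33 on the log2 scale (SE 0.16, 0.15 and 0.15), and none passed on its own (edgeR, Benjamini-Hochberg adjusted p = 0.341, 0.28 and 0.417). From pre-cDCs to pDCs Stat3 rose 1.90-fold (log2 0.93, SE 0.16, 95% interval 0.61 to 1.25, edgeR, Benjamini-Hochberg adjusted p = 3.81e-05). It was higher in the pDC well of 3 of 3 replicates, which follows from the lack of overlap. In the 4 wells with agreeing titles Stat3 was 94.0, 94.9, 138 and 181 CPM in the order of the populations.

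Stat3 lies on the minus strand of chromosome 11 (100885098-100939540), next to Stat5a (100859351-100885169, plus strand) and Stat5b (100780731-100850724, minus strand). The annotated 3' ends of Stat3 and Stat5a overlap by 72 bases on opposite strands. Of the 50-base words in the last 500 bases of Stat3 transcripts, 1.28% also occur, antisense, in Stat5a, so reads of one could reach the other only in this small stretch if strand was not used in counting, which is not stated. Of the Stat5a words, 5.6% are shared with Stat5b on the same strand and 2.15% are antisense to Stat3, and 0 of the 451 Stat5b words are found elsewhere among coding transcripts. The Stat5 genes, whose products act downstream of GM-CSF and IL-7, are therefore separated in most but not all of their 3' sequence.

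Stat5a had 53.6, 40.7 and 47.0 CPM in pre-cDCs and 48.1, 41.0 and 61.0 CPM in lo-lo cells. It had 32.2, 26.9 and 45.2 CPM in lo-hi cells and 38.1, 37.0 and 38.2 CPM in pDCs. All pDC wells were below all pre-cDC wells, but the difference was -0.33 on the log2 scale (95% interval -0.72 to 0.06) and did not pass (edgeR, Benjamini-Hochberg adjusted p = 0.205). Its step between lo-lo and lo-hi cells, -0.54 (SE 0.19), did not pass either (edgeR, Benjamini-Hochberg adjusted p = 0.0831). Stat5b had 35.1, 26.8 and 32.1 CPM in pre-cDCs, 36.0, 34.8 and 36.2 CPM in lo-lo cells, 34.2, 23.3 and 39.1 CPM in lo-hi cells and 24.0, 26.5 and 28.2 CPM in pDCs. The pDC wells lay within or below the range of the others, and the difference to pre-cDCs was -0.28 on the log2 scale (95% interval -0.66 to 0.10).

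Stat4, which mediates the response to IL-12 and also to type I interferon, was covered by only 7 to 41 counts per well. It had 12.004, 9.42 and 10.5 CPM in pre-cDCs and 11.2, 7.51 and 9.16 CPM in lo-lo cells. It had 5.96, 8.79 and 3.86 CPM in lo-hi cells and 4.43, 7.58 and 7.81 CPM in pDCs. All pre-cDC wells lay above all pDC wells, with a log2 difference of -0.77 (SE 0.29, 95% interval -1.37 to -0.18) that did not pass (edgeR, Benjamini-Hochberg adjusted p = 0.0418). Stat4 had the fewest counts and the widest interval of the 9 genes in this comparison. Depth and spread between wells both enter that width, and their parts were not separated. Stat6, the STAT of IL-4 and IL-13, had 37.2, 33.7 and 35.1 CPM in pre-cDCs, 27.2, 22.2 and 28.4 CPM in lo-lo cells, 29.2, 28.5 and 23.7 CPM in lo-hi cells and 36.6, 35.7 and 29.5 CPM in pDCs. The lo-lo wells were below the pre-cDC wells and the pDC wells above the lo-hi wells, each without overlap, but neither step passed (log2 -0.44 and 0.32, edgeR, Benjamini-Hochberg adjusted p = 0.151 and 0.508). Between pDCs and pre-cDCs Stat6 differed by -0.05 on the log2 scale (95% interval -0.40 to 0.29).

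**Figure D2:**
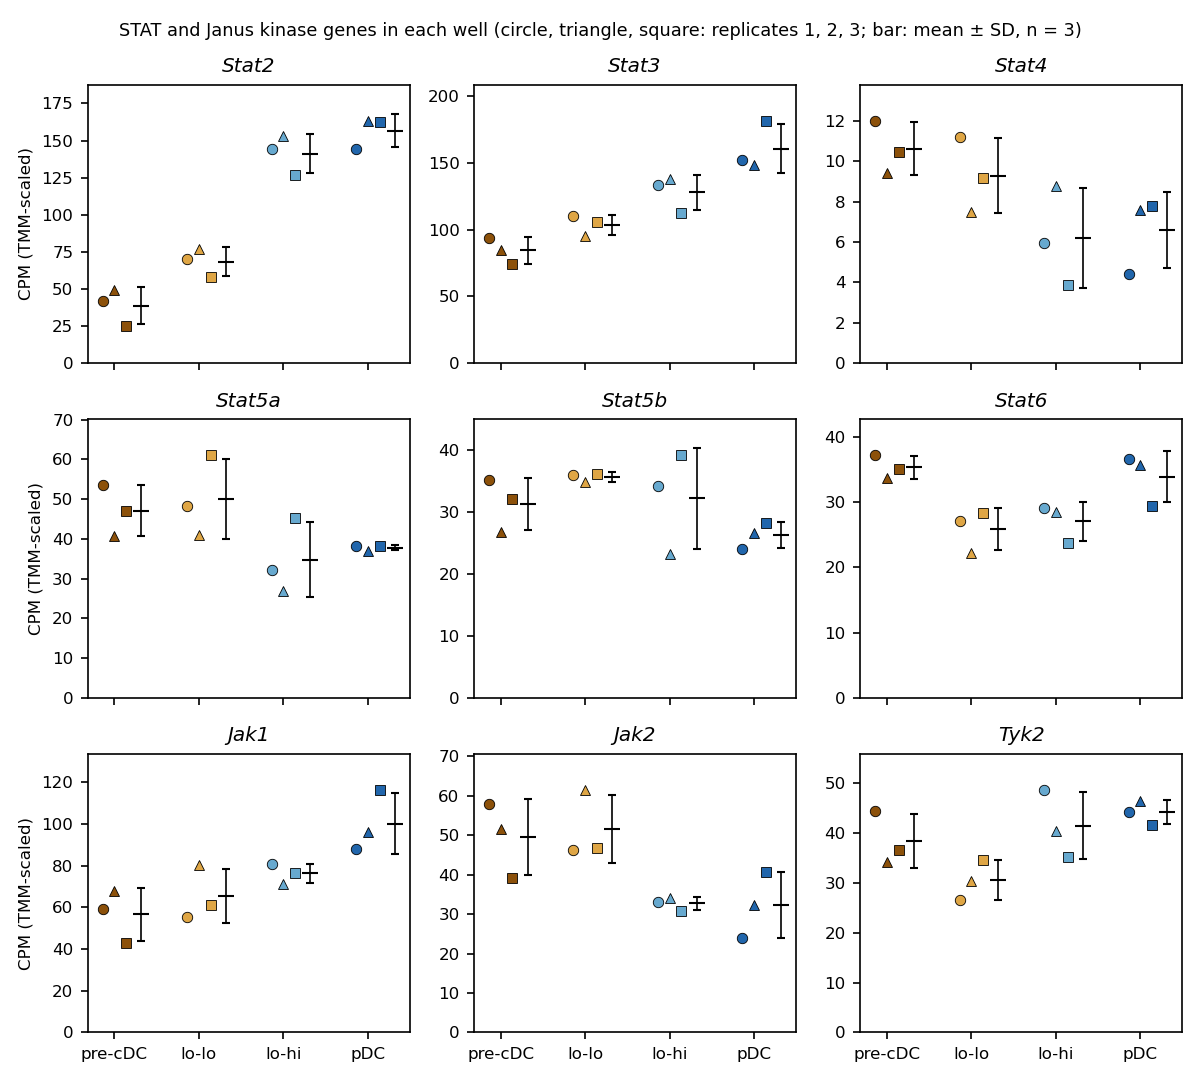
CPM (y axis, linear from 0, scaled by the TMM method) of each of the 9 genes in the 4 populations (x axis), with 1 symbol per well and bars for the mean ± SD of 3 wells. Stat2 separates into a lower pair and an upper pair of populations, Stat3 climbs at each step, and Jak2 is lower in lo-hi cells and most pDC wells than in pre-cDCs and lo-lo cells.

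Among the kinases, Jak1 and Jak2 differed over the populations, Jak1 with its highest mean in pDCs and Jak2 with its lowest means in lo-hi cells and pDCs. JAK1 serves the interferon receptors and the receptors that use gp130 or the common gamma chain. It had 59.1, 67.9 and 42.9 CPM in pre-cDCs and 55.5, 80.2 and 61.2 CPM in lo-lo cells. It had 80.8, 71.4 and 76.6 CPM in lo-hi cells and 88.0, 96.3 and 116 CPM in pDCs. The pDC wells were above all others, lo-hi wells were above pre-cDC wells, and lo-lo cells overlapped with both. Jak1 rose 1.77-fold from pre-cDCs to pDCs (log2 0.82, SE 0.18, 95% interval 0.45 to 1.20, edgeR, Benjamini-Hochberg adjusted p = 0.001). It did so in 3 of 3 replicates, which follows from the lack of overlap. Without pre-cDC replicate 3, its lowest well, the difference was 0.61 and no longer passed (edgeR, Benjamini-Hochberg adjusted p = 0.0145). No single step passed, with log2 differences of 0.22, 0.22 and 0.38 in order. In the 4 wells with agreeing titles Jak1 was 59.1, 80.2, 71.4 and 116 CPM.

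JAK2 is the kinase of the GM-CSF and IL-3 receptors. It had 58.0, 51.6 and 39.2 CPM in pre-cDCs and 46.4, 61.4 and 46.7 CPM in lo-lo cells. It had 33.1, 34.1 and 30.9 CPM in lo-hi cells and 23.8, 32.2 and 40.8 CPM in pDCs. All lo-hi wells were below all lo-lo and pre-cDC wells, and 1 pDC well reached into the range of the pre-cDCs. The step between lo-lo and lo-hi cells was -0.65 on the log2 scale (SE 0.20, 95% interval -1.06 to -0.24, edgeR, Benjamini-Hochberg adjusted p = 0.0409) and the difference between pDCs and pre-cDCs was also -0.65 (SE 0.20, edgeR, Benjamini-Hochberg adjusted p = 0.0132). Neither passed, although with the replicate number as a block the latter was called (log2 -0.67, edgeR, Benjamini-Hochberg adjusted p = 0.00411). It was also called without pre-cDC replicate 3 and without pDC replicate 3 (both log2 -0.84), the wells with the lowest and the highest Jak2 of their populations. Among the other unblocked alternatives it was called with the size factors of DESeq2 (edgeR, Benjamini-Hochberg adjusted p = 0.00825) and without a filter on low counts (0.00253).

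TYK2 is the partner of JAK1 at the type I interferon receptor, and its gene passed no test. It had 44.5, 34.2 and 36.5 CPM in pre-cDCs, 26.6, 30.4 and 34.6 CPM in lo-lo cells, 48.6, 40.4 and 35.3 CPM in lo-hi cells and 44.3, 46.4 and 41.7 CPM in pDCs. The highest lo-lo well was below the lowest lo-hi well, and the pre-cDC and pDC wells overlapped. The step from lo-lo to lo-hi cells was 0.45 on the log2 scale (SE 0.18, edgeR, Benjamini-Hochberg adjusted p = 0.122). From pre-cDCs to pDCs the difference was 0.19, with a 95% interval from -0.16 to 0.55, so that a change as large as that of Stat2 lies outside the interval.

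Counted by comparison, 1 of 9 genes was called between lo-lo cells and pre-cDCs (Stat2, higher), where 3.16% of all genes were called, 1.61% higher and 1.55% lower in lo-lo cells. The populations did not overlap for 3 of the 9 genes, against 21.1% of all genes. Between lo-hi and lo-lo cells 1 of 9 was called (Stat2, higher), against 5.17% of all genes, 2.33% higher and 2.83% lower, and 4 did not overlap (27.4% of all genes). Between pDCs and lo-hi cells edgeR called 0 of 9, and DESeq2 also 0. Here 2 genes, Stat3 and Jak1, had an unadjusted p below 0.05 in edgeR, as did 11.3% of all genes, and 0.961% of all genes were called, 0.118% higher and 0.844% lower in pDCs. For 3 genes, Stat3, Stat6 and Jak1, the pDC wells were above the lo-hi wells without overlap, against 17.4% of all genes not overlapping in either direction. Between pDCs and pre-cDCs 3 of 9 were called, all higher in pDCs, where 21.7% of all genes were called, 11.4% higher and 10.4% lower, and 5 did not overlap (39.4%). The median log2 fold change of the 9 genes was 0.09, 0.07, 0.13 and -0.05 in these comparisons, beside 0.04, 0.01, 0.03 and 0.05 for all genes. The 4 comparisons share wells and are therefore not independent of each other. In the 4 wells with agreeing titles, the difference between the pDC and the pre-cDC well had the sign of the full comparison for 8 of 9 genes. Tyk2 was the exception. Both wells are part of the full comparison, so the shared sign is partly fixed in advance and is no check of the match.

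**Figure D3:**
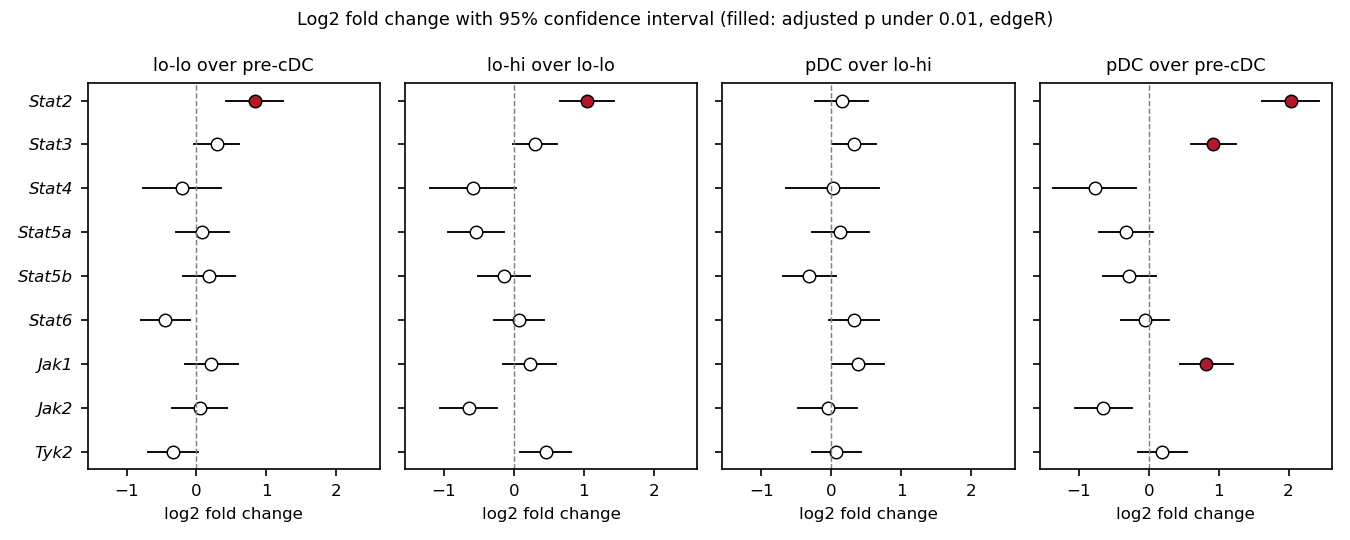
Log2 fold change (x axis) of the 9 genes (y axis) in the 4 comparisons, with 95% confidence intervals from edgeR over 3 wells per population and filled symbols for adjusted p below 0.01. Stat2 is called in 3 panels, Stat3 and Jak1 only between pDCs and pre-cDCs, and no gene between pDCs and lo-hi cells.

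The genes whose log2 CPM followed each of the 4 called genes most closely over the 12 wells were sought among 7823 genes with a mean of at least 10 CPM. For Stat2 they were Ets1 (Pearson's r = 0.995), which encodes a TF of lymphoid cells, Sdc4 (0.993), a syndecan, and Prkcb (0.992), a protein kinase C. For Stat3 they were Edem3 (0.971), Cyld (0.967), which encodes a deubiquitinase, and Slc9a9 (0.966). For Jak1 they were Smap2 (0.967), Mirt1 (0.963) and Myo5a (0.957), and for Jak2 Smchd1 (0.953), Kif2a (0.943) and Map4 (0.932). Within the family, the closest pairs were Stat2 and Stat3 (0.914), Jak1 and Stat2 (0.856), Jak1 and Stat3 (0.833), Jak2 and Stat4 (0.709), and Stat5a and Stat5b (0.666). These values describe wells that share the 4 populations and 3 replicate numbers, and the best of 7823 genes is high by selection.

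Upstream of the kinases, receptor genes changed in both directions. This list and those of inhibitors, partners and targets below were chosen with earlier results of these data known. Their shares called are therefore descriptive and no independent test. Of 21 receptor genes tested, 10 were higher and 7 lower in pDCs than in pre-cDCs (edgeR, adjusted p below 0.01), with a median log2 fold change of 0.66, beside 11.4% higher, 10.4% lower and a median of 0.05 over all genes. From pre-cDCs to lo-lo cells 6 rose and 2 fell, from lo-lo to lo-hi cells 4 rose and 2 fell, and between lo-hi cells and pDCs 0 were called in either direction. Over all genes, 1.61% rose and 1.55% fell in the first of these steps, and 2.33% and 2.83% in the second. In the last step 0.118% of all genes were higher and 0.844% lower in pDCs. The largest increases were those of Il7r, the IL-7 receptor alpha chain (23.8 ± 7.28 to 152 ± 10.6 CPM, n = 3 each, log2 2.70, SE 0.19), Csf2rb2, a beta chain of the IL-3 receptor (21.7 ± 3.10 to 125 ± 8.48 CPM, log2 2.55, SE 0.17), and Il27ra, which reached only 4.84 CPM (log2 2.37, SE 0.51). Csf2rb2 and Csf2rb are near-identical copies and their counts are uncertain. The largest decreases were those of Csf2ra, the GM-CSF receptor alpha chain (129.8 ± 28.5 to 39.2 ± 7.33 CPM, log2 -1.71, SE 0.19), Ifngr1, of the interferon gamma receptor (114 ± 27.3 to 35.1 ± 6.00 CPM, log2 -1.69, SE 0.20), and Il6st, which encodes gp130 (81.3 ± 13.04 to 33.0 ± 6.16 CPM, log2 -1.32, SE 0.21). Both chains of the type I interferon receptor, picked out after their values were seen because they bind TYK2 and JAK1, were higher in pDCs: Ifnar1 rose from 52.4 ± 7.71 to 143 ± 15.7 CPM (log2 1.45, SE 0.16) and Ifnar2 from 257 ± 17.3 to 405 ± 46.7 CPM (log2 0.66, SE 0.14). Both chains of the interferon gamma receptor fell, Ifngr2 by 0.52 on the log2 scale (SE 0.15).

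Of 19 inhibitor genes tested, 4 were higher in pDCs than in pre-cDCs and 0 lower, with a median of 0.16, a share called near the 21.7% of all genes. They were Socs1 (1.36 ± 0.892 to 7.76 ± 4.20 CPM, log2 2.62, SE 0.48) and Socs3 (1.63 ± 0.370 to 6.26 ± 1.72 CPM, log2 1.87, SE 0.42), which are themselves STAT targets and block the receptor kinases, Cblb, a ubiquitin ligase (9.84 ± 1.49 to 22.7 ± 4.17 CPM, log2 1.22, SE 0.23), and Ptpn1, a phosphatase that acts on JAK2 and TYK2 (log2 0.92, SE 0.14). In the steps between neighbouring populations 1 inhibitor was called, Cblb between pre-cDCs and lo-lo cells. Over all genes, 3.16%, 5.17% and 0.961% were called in the steps to lo-lo cells, lo-hi cells and pDCs. The low levels of Socs1 and Socs3 stand on few counts.

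Of 17 partner and target genes tested, 4 were higher and 2 lower in pDCs than in pre-cDCs, with a median of 0.20, beside 11.4% higher and 10.4% lower over all genes. Pim2, a kinase gene (4.21 ± 1.10 to 20.4 ± 4.55 CPM, log2 2.34, SE 0.28), Irf7, the TF that drives interferon genes (89.3 ± 16.0 to 392 ± 168 CPM, log2 2.14, SE 0.39), Ccnd1 (137 ± 36.1 to 370.4 ± 41.9 CPM, log2 1.44, SE 0.17) and Mx1, an antiviral gene (log2 0.997, SE 0.23), rose. Myc (16.0 ± 2.02 to 1.30 ± 0.279 CPM, log2 -3.64, SE 0.35) and Mcl1, a survival gene (log2 -0.74, SE 0.16), fell. Irf9, the partner of STAT2 in ISGF3, was 71.7 ± 4.52 CPM in pre-cDCs and 81.8 ± 8.48 CPM in pDCs (log2 0.20, 95% interval -0.12 to 0.52) and was not called. The interferon-stimulated genes Isg15, Ifit1 and Ifit3 had log2 differences of 1.58, 1.66 and 1.04 that did not pass (edgeR, Benjamini-Hochberg adjusted p = 0.0507, 0.0502 and 0.0361). Oas1a, another interferon-stimulated gene, lay in the other direction, at 6.38 ± 1.73 CPM in pre-cDCs and 3.71 ± 1.06 CPM in pDCs (log2 -0.69, edgeR, Benjamini-Hochberg adjusted p = 0.187). Between neighbouring populations, 1 of the 17 rose and 1 fell from pre-cDCs to lo-lo cells, 1 rose from lo-lo to lo-hi cells and 0 were called between lo-hi cells and pDCs. The shares of all genes called in these steps were 3.16%, 5.17% and 0.961%.

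**Figure D4:**
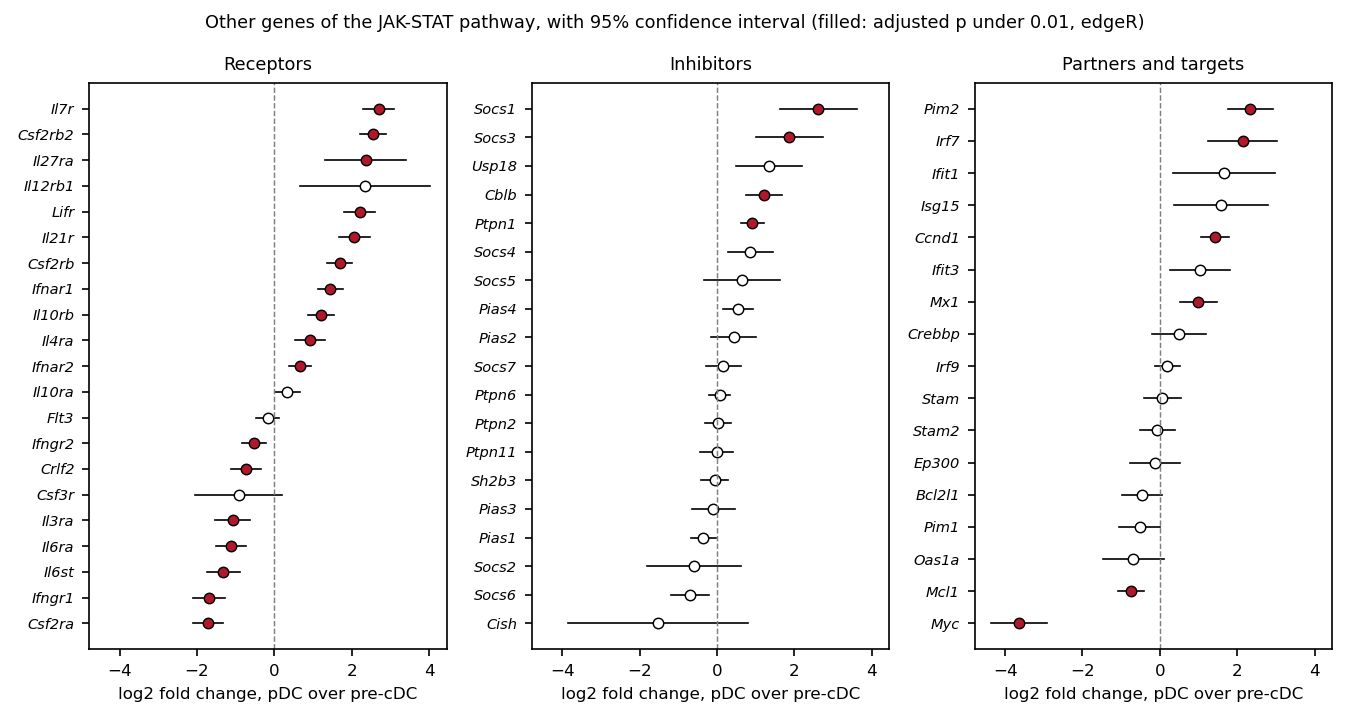
Log2 fold change between pDCs and pre-cDCs (x axis) with 95% confidence intervals from edgeR over 3 wells per population, for receptor, inhibitor, and partner and target genes of the pathway (y axis, ordered by value). Filled symbols mark adjusted p below 0.01: 17 of 21 receptors, 4 of 19 inhibitors and 6 of 17 partners and targets.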

How the data were processed

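Cells were sorted from mouse bone marrow, and total RNA of 12 wells was sequenced by a modified bulk SCRB-seq protocol. Per the labels and the study's methods, the authors mapped reads with STAR to mm10 (GRCm38), processed them with zUMIs and deposited the resulting raw counts, 1 whole number for each gene in each well. Whether the counts are reads or molecular identifiers, and whether strand was used, is not given in the sources used here. The 9 genes and the pathway and marker lists were chosen with earlier results of these data known.

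Wells were grouped by the rank match to the study's source data rather than by their titles. The match takes the identity of 8 wells, against their titles, from the expression of 28 TFs, among them Stat3. Counts were scaled by TMM and tested with edgeR 4.0.16 (quasi-likelihood, robust, all 12 wells in 1 fit, no covariates, mean count of at least 1, Benjamini-Hochberg over 15293 genes, cutoff 0.01) in R 4.3.3, and 6461 genes were left out as low. CPM were computed from the TMM-scaled library totals. The fits were tested on simulated data. DESeq2 1.42.0 was run as an alternative. Gene positions are those of GENCODE on GRCm38, and 21410 of 21754 identifiers had a symbol. Il2rg was not analysed here. All 9 genes were named. Of each pathway list at most 3 genes per direction were named by the size of their change between pDCs and pre-cDCs, and Ptpn1, Mx1, Irf9, Isg15, Ifit1, Ifit3, Oas1a, Ifnar1, Ifnar2 and Ifngr2 in addition, after their values were seen. Because the legend names 3 individual mice, wells of the same number were taken as paired, although the methods describe pools of several mice for precursor sorts. Deviations from the population means correlated between wells of the same number at a median of 0.108, 0.107 and 0.081, and between different numbers at -0.054. Such deviations cancel out within a population, so the last value is largely fixed by the others and is no separate evidence of pairing. Whether these wells came from single mice or pools cannot be told from the sources used here, and p-values measure the spread between these wells, which may be partly technical.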

Additional observations from a re-analysis of the deposited data

How the results depend on the processing

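Under 20 alternatives to the analysis of the matched wells, the called differences of Stat2 between lo-hi and lo-lo cells (log2 0.93 to 1.14), and of Stat2 (1.75 to 2.19) and Stat3 (0.80 to 1.01) between pDCs and pre-cDCs, kept their calls, and that of Jak1 (0.61 to 0.94) lost it in 1. The alternative with a cutoff of 0.05 uses the same fit and could lose no call. The number of the 9 genes called over the 4 populations, 4 in the analysis reported, was 2 to 4 when 1 well was left out, with Jak1 and Jak2 both lost without pre-cDC replicate 1, lo-hi replicate 1 or 2, or pDC replicate 2. Between lo-lo cells and pre-cDCs it was 1, and 0 with the size factors of DESeq2, with the filter of edgeR (filterByExpr) or without robust estimation, and 0 to 1 when 1 well was left out. At a cutoff of 0.05 it was 2 between lo-hi and lo-lo cells and 5 between pDCs and pre-cDCs. When 1 well was left out, it was 1 between lo-hi and lo-lo cells, 0 between pDCs and lo-hi cells and 3 to 4 between pDCs and pre-cDCs. It was also 4 between pDCs and pre-cDCs with the size factors of DESeq2 and without a filter on low counts, Jak2 being the gene gained in each. With the replicate number as a block (the pairing), the counts were 4, 1, 1, 0 and 4, since Jak2 between pDCs and pre-cDCs (-0.67) was gained, and the block changed no other call of the 9 genes. Over all genes it raised the calls between pDCs and lo-hi cells from 147 to 346 and those between lo-lo cells and pre-cDCs from 483 to 743.

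With the wells grouped by title the counts were 0 in every comparison, with or without the replicate number as a block. Directions that turned under the titles, with the value without and with that block, were those of Stat3 (-0.0178 and -0.0319), Stat5a (-0.16 and -0.15), Stat5b (-0.30 and -0.31) and Jak2 (-0.0142 and -0.0319) between lo-lo cells and pre-cDCs, Stat4 (0.37 and 0.36) and Jak1 (-0.17 and -0.16) between lo-hi and lo-lo cells, Stat4 (-0.32 and -0.34), Stat5b (0.33 and 0.35), Stat6 (-0.28 and -0.29), Jak2 (0.17 and 0.17) and Tyk2 (-0.15 and -0.16) between pDCs and lo-hi cells, and Stat5a (0.11 and 0.11) and Tyk2 (-0.10 and -0.0884) between pDCs and pre-cDCs. Stat2 between pDCs and lo-hi cells turned only with the block (-0.0154). With all libraries thinned to the smallest total, Stat5a and Jak2 turned between lo-lo cells and pre-cDCs (-0.0436 and -0.036). When 1 well was left out, directions of uncalled differences turned in 17 cases, within ranges of -0.0877 to 0.21 (Stat5a) and -0.11 to 0.19 (Jak2) between lo-lo cells and pre-cDCs, -0.28 to 0.0219 (Stat5b) and -0.0244 to 0.15 (Stat6) between lo-hi and lo-lo cells, -0.16 to 0.30 (Stat4), -0.0018 to 0.34 (Stat5a), -0.24 to 0.14 (Jak2) and -0.0225 to 0.21 (Tyk2) between pDCs and lo-hi cells, and -0.15 to 0.0305 (Stat6) between pDCs and pre-cDCs. No called difference turned, and all called ones were lost under the titles. The cause of these changes was not tested. Stat4, at 7 to 41 counts per well, had the fewest counts and the widest intervals of the 9 genes.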
